A study of Mus musculus with 8 samples.

Results

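Mouse chromosomes 2, 5, 8 and 11 were the 4 autosomes examined here, out of 21 chromosomes on the array. They were chosen because the mean log2 ratio of each stayed within 0.1 of the autosomal median on each of 8 arrays. They carry 54323 of 232626 probes (23.4%), of which 16650 lie on chromosome 2, 13787 on chromosome 5, 11388 on chromosome 8 and 12498 on chromosome 11. These probes span 571 Mb and name 6834 genes. Since the chromosome means chose the chromosomes, those means are given as a description and carry no test. The rule is not exclusive, since chromosome 6 also kept to it, with its largest mean at -0.08 in tumour 5. Just outside it lay chromosome 10, at -0.10 in tumour 5.

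The method was comparative genomic hybridisation on arrays, in which test DNA and reference DNA compete for the same oligonucleotide probes. Tumours 1 to 6 were hepatocellular carcinomas (HCC) of male C57BL/6 mice carrying a FEAT transgene, aged 16, 21, 20, 18.5, 22 and 12 months. The FEAT normal liver was that of a transgenic male, 13 months old, and the wild-type liver that of a C57BL/6 male without the transgene, 6 months old, with 1 array each. All 8 arrays shared 1 kind of reference, normal liver of a male wild-type C57BL/6 mouse of 6 months, in the Cy5 channel. Tumour 4 came from a mouse with lung metastasis, per the labels. Tumours 1 to 5 were from older mice than either non-tumour liver, so that age and tumour state cannot be told apart. The labels used here do not give the promoter that drives the transgene, nor the share of non-tumour cells in each sample.

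The log2 ratio is test over reference, so that 0 stands for the same amount of DNA as the autosomal median. In a diploid genome, 1 extra copy in every cell would give a log2 ratio of 0.58 and 1 lost copy would give -1. A change carried by only some of the cells, or measured on an array that compresses ratios, gives a smaller value. Human HCC is known for recurrent gains and losses of whole chromosome arms, and several of those arms have their mouse counterparts in part on these 4 chromosomes. Genes of human 4q lie in part on mouse chromosomes 5 and 8, genes of 8p, 13q and 16q in part on chromosome 8, those of 17p and 17q on chromosome 11 and those of 20q on chromosome 2.

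The segments that were called on these chromosomes rest on 22 probes, and the probes with the largest shifts are shown so that their values below can be read against their sequence. Sequences are those listed in the scanner file, whose strand and genome build are not given in the sources used here. The first pair lies under the loss of the FEAT normal liver on chromosome 2. Capitals mark the 30 bases that both probes hold, which means that their values are not independent:
BC004853 probe, chr2:25298452-25298503: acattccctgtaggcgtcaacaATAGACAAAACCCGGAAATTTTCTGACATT
AK142669 probe, chr2:25298474-25298527: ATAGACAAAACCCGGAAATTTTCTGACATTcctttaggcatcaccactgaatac

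The next probes are the lowest of that loss and the 5 probes of the loss on chromosome 11, in the order of their position. Capitals mark CG dinucleotides, the sites of DNA methylation in mammals:
Grin1 probe, chr2:25301844-25301903: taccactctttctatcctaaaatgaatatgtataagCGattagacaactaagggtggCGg
P140 probe 1, chr11:97627549-97627608: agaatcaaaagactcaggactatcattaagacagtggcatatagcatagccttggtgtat
P140 probe 2, chr11:97631955-97632014: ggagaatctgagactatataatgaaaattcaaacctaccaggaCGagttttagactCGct
P140 probe 3, chr11:97643276-97643335: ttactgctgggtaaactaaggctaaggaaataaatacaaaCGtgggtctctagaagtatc
P140 probe 4, chr11:97651822-97651881: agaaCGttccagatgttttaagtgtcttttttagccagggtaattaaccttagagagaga
P140 probe 5, chr11:97656616-97656675: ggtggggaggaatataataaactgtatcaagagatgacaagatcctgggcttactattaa
The last pair gave the highest values under a gain of the wild-type liver on chromosome 11, and both are among the dimmest probes of the array:
CL256474 probe 2, chr11:96201755-96201814: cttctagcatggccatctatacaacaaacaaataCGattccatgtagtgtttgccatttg
CL256474 probe 3, chr11:96208584-96208643: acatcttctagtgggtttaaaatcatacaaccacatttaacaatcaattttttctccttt

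The whole chromosomes were close to the autosomal median. Chromosome 2 had means of 0.04, 0.04, 0.05, 0.06, 0.07 and 0.02 in tumours 1 to 6, against 0.00 for FEAT normal liver and 0.02 for wild-type liver. It was the highest of the 4 chromosomes on 7 of 8 arrays, both non-tumour livers included. Chromosome 5 had means of 0.03, 0.02, 0.03, 0.00, 0.04 and -0.01 in the tumours, against -0.01 for FEAT normal liver and 0.02 for wild-type liver. Tumours and non-tumour livers overlapped on chromosome 5. Chromosome 8 had means of 0.02, 0.01, 0.05, 0.02, 0.04 and -0.03 in the tumours, against 0.00 for FEAT normal liver and 0.02 for wild-type liver. Its lowest value was that of tumour 6, below both non-tumour livers, and its highest that of tumour 3. Chromosome 11 had means of 0.02, 0.00, 0.05, 0.03, 0.04 and 0.00 in the tumours, against -0.01 for FEAT normal liver and 0.01 for wild-type liver. The tumour average over 6 arrays was 0.05 ± 0.02 for chromosome 2, 0.02 ± 0.02 for chromosome 5, 0.02 ± 0.03 for chromosome 8 and 0.02 ± 0.02 for chromosome 11 (SD, n = 6).

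**Figure D1:**
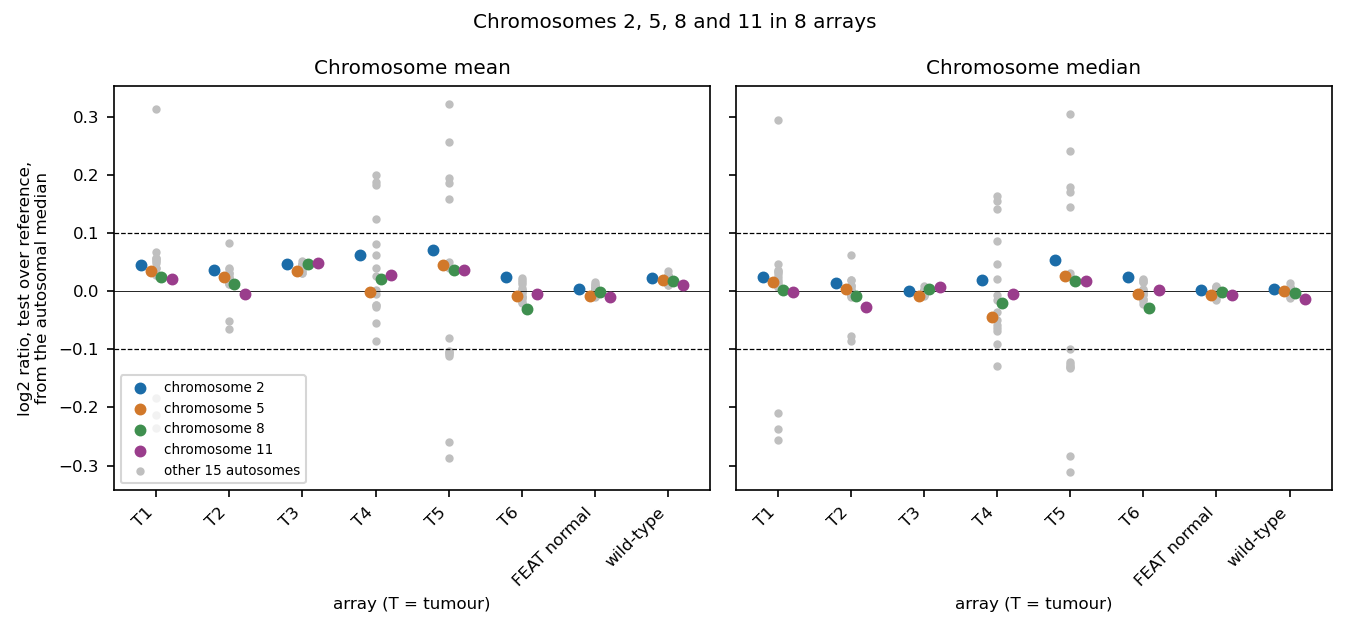
Mean (left) and median (right) log2 ratio of each autosome on each array, as distance from the autosomal median, ordered as tumours 1 to 6, FEAT normal and wild-type. The coloured points of chromosomes 2, 5, 8 and 11 lie between the dashed limits at -0.1 and 0.1 on every array, while grey points of other autosomes pass 0.3 in tumours 1 and 5.

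The contrast with the other 15 autosomes was largest in the tumours with whole-chromosome changes. In tumour 5 the means of the 4 chromosomes spanned 0.03, against 0.61 for the other autosomes. In tumour 1 the spans were 0.02 and 0.55, and in tumour 4 they were 0.06 and 0.28. Tumour 6 went the other way, with a span of 0.05 over the 4 chromosomes and of 0.04 over the other 15. Tumour 3 had spans of 0.01 and 0.02, and the non-tumour livers had 0.01 and 0.03 (FEAT normal) and 0.01 and 0.02 (wild-type). A span over 15 chromosomes has more values to differ than a span over 4, so these spans are a description.

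How firmly the limit of 0.1 held depended on the zero line. With the autosomal median as 0, all 32 pairs of array and chromosome lay within 0.1, and the largest value was 0.07, for chromosome 2 in tumour 5. With the median in place of the mean of a chromosome, the largest value was 0.05, again for chromosome 2 in tumour 5. With the most frequent autosomal value (the mode) as 0, 25 of 32 pairs lay within 0.1 and the largest value was 0.15, for chromosome 2 in tumour 4. The 7 pairs outside were all 4 chromosomes of tumour 3 and chromosomes 2, 8 and 11 of tumour 4, the arrays whose mode lay 0.08 and 0.09 below their median. On the zero line of the deposited values, 28 of 32 pairs lay within 0.1. The 4 outside were the 4 chromosomes of tumour 5, at 0.14 to 0.17, on an array whose deposited autosomal median was 0.10. As arithmetic for a diploid genome and uncompressed ratios, the upper limit of 0.1 corresponds to 1 extra copy in 14.4% of cells, and the largest mean, 0.07, to 1 extra copy in 10.2% of cells.

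Within the chromosomes, means over 1 Mb bins with at least 20 probes gave 568 values per array. Of these, 486, 536, 517, 406, 494 and 537 lay within 0.1 in tumours 1 to 6, against 553 for FEAT normal liver and 554 for wild-type liver. Tumour 4 had the fewest, 71.5%, and also the highest probe noise, with an SD of 0.49 against 0.22 to 0.36 on the other arrays. Bins at or beyond 0.2 numbered 32 in tumour 4, 1 in tumour 5 and 0 on each other array. The spread of bins within a chromosome was the same on these chromosomes as on the other 15, with an SD of 0.08 on both in tumour 4 and of 0.04 on both in the wild-type liver.

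**Figure D2:**
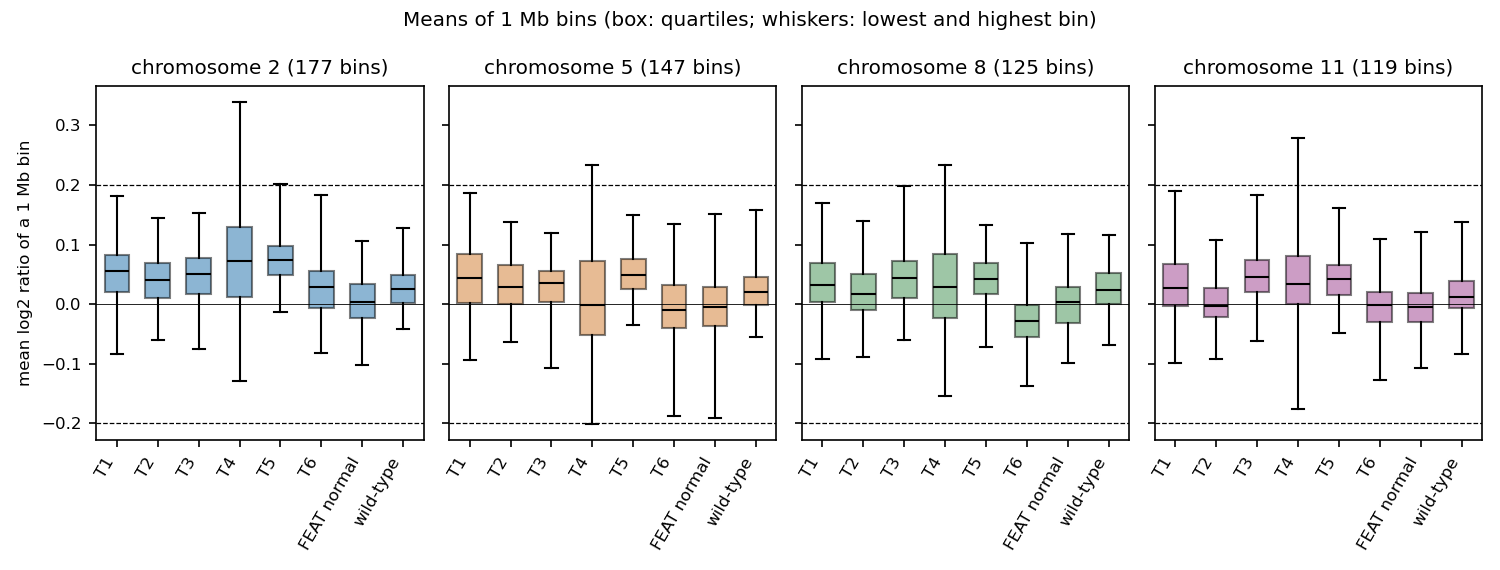
Distribution of 1 Mb bin means (log2 ratio) on chromosomes 2, 5, 8 and 11 for tumours 1 to 6, FEAT normal and wild-type. Boxes give quartiles, whiskers the lowest and highest bin, and dashed lines -0.2 and 0.2; tumour 4 has the widest box on each chromosome.

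Bin values went up and down together across arrays. Over the 28 pairs of arrays the correlation across the 568 bins had a median of r = 0.62 (lowest 0.19, highest 0.78), which is a description across bins that share probes and reference DNA. The bins also followed base composition, with r between -0.59 and 0.02 against the GC content of their probes. A correction for GC in 500 kb windows left a median correlation of r = 0.52 between arrays. It did not remove the trend with GC in full, since r against GC then lay between -0.27 (tumour 1) and 0.10 (tumour 3). The highest segment of at least 100 probes lay on chromosome 2 between 79973519 and 89732344, at 0.19 in tumour 4. Its 1194 probes name 160 genes, of which 108 are Olfr genes, the olfactory receptors, and its probes hold 35.2% GC, against 36.6% over all autosomal probes. The mean of its probes was 0.10, 0.09, 0.06, 0.19, 0.11 and 0.09 in tumours 1 to 6, against 0.04 for FEAT normal liver and 0.06 for wild-type liver. Every array was therefore above 0 there, and after the GC correction tumour 4 stood at 0.12. Next came chromosome 5 between 82791567 and 89814544, at 0.17, and chromosome 2 between 93916299 and 112081295, at 0.14, both in tumour 4. The lowest such segments were also in tumour 4, and there other arrays lay on both sides of 0, at -0.06 on chromosome 5 between 108356420 and 150670024, at -0.05 on chromosome 5 between 20386484 and 38813830, and at -0.04 on chromosome 2 between 24422897 and 34691762. The part of base composition in these levels was not tested beyond that correction.

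A second property of the probes moved with the ratio. The probes were divided into 10 classes of equal size by the red (reference) signal on the wild-type array, the only array whose signals were used here. On the 4 chromosomes the dimmest class had median log2 ratios of 0.31, 0.26, 0.48, 0.75, 0.24 and 0.39 in tumours 1 to 6, against 0.14 for FEAT normal liver and 0.28 for wild-type liver. The brightest class had medians of -0.21, -0.19, -0.30, -0.63, -0.14 and -0.52 in the tumours, against -0.44 for FEAT normal liver and -0.07 for wild-type liver. The slope was therefore steepest in tumour 4, and on the other 15 autosomes the same classes read 0.77 and -0.62 in tumour 4. On the wild-type array the red signal is itself the denominator of the ratio, which ties its own slope to this ranking. Each array was then corrected for the medians of 20 finer classes of that signal, an alternative chosen after these values were seen. The correction was interpolated between the middles of the classes and held constant beyond the outermost ones. The probe noise of tumour 4 fell to an SD of 0.27. All 32 pairs of array and chromosome stayed within 0.1, the largest at 0.06.

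**Figure D3:**
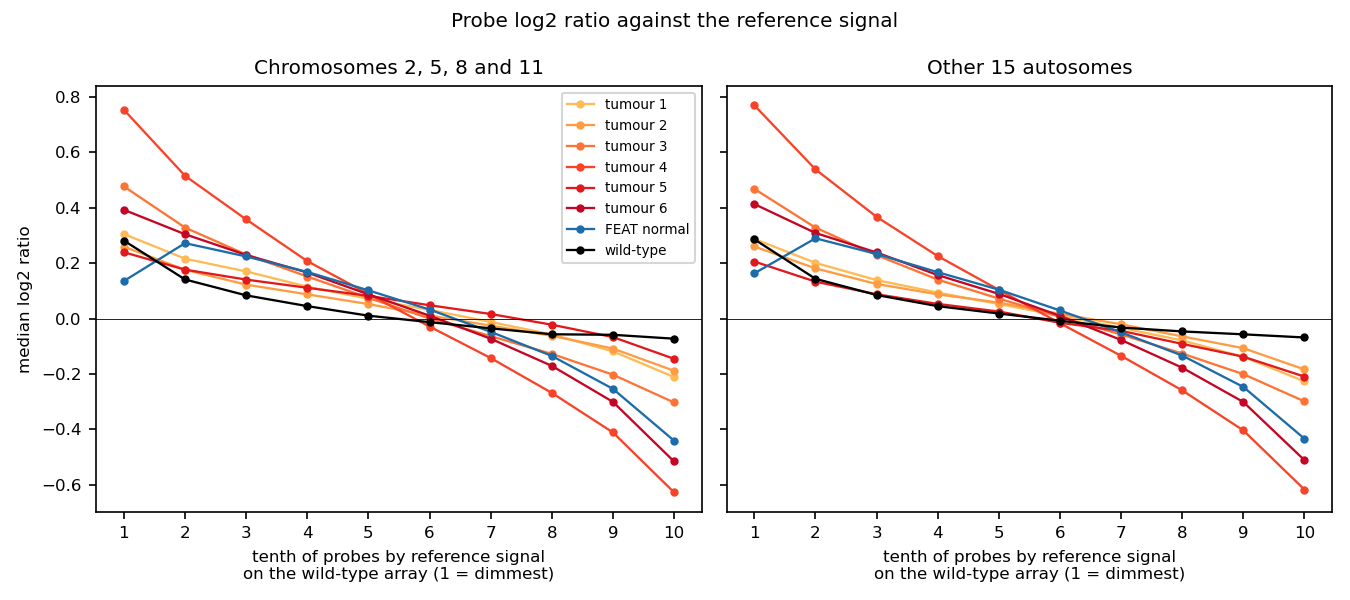
Median log2 ratio of probes in each of 10 classes of the red reference signal of the wild-type array, for chromosomes 2, 5, 8 and 11 (left) and the other 15 autosomes (right), 1 line per array. The lines run downward with brighter signal on both sides of the plot, most steeply in tumour 4.

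Tumours were then set against the non-tumour livers bin by bin, each bin taken relative to the mean of its own chromosome on that array. By limma with Benjamini-Hochberg adjustment over 2523 bins of all chromosomes, 0 of the 568 bins were called, against a background of 0% over all bins. At an unadjusted p under 0.05, limma found 3 of 568 bins (2 of them higher in tumours), against 20 of 2523 bins or 0.793% over all chromosomes, and the lowest adjusted p of the 568 was 0.999. The lowest unadjusted p belonged to the bin on chromosome 2 from 75000001 to 76000000, which holds Nfe2l2, the gene of the oxidative stress regulator NRF2, with Agps and Hnrpa3. Its means were 0.06, 0.07, 0.10, 0.13, 0.04 and 0.03 in tumours 1 to 6, against -0.06 for FEAT normal liver and -0.02 for wild-type liver. All 6 tumours lay above both non-tumour livers. The bin was picked for its difference, so that this order is a description, and the share of such bins over all bins was not counted. Relative to its chromosome the bin was 0.07 ± 0.03 (SE) higher in tumours, with an adjusted p of 0.999 from limma.

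The other bins were picked by size of difference as measured from the autosomal median. On chromosome 2 from 82000001 and from 8000001 the tumours were 0.11 and 0.10 above the non-tumour livers, and in each the value of tumour 4 was the highest. Relative to the chromosome mean, the scale of the test, these differences were 0.07 and 0.07. The bin from 82000001 was above both non-tumour livers in 6 of 6 tumours and that from 8000001 in 5 of 6, again a description of bins picked for their difference. At the low end stood the bins on chromosome 11 from 114000001, which holds the ribosomal protein gene Rpl38, on chromosome 5 from 98000001, which holds Bmp3, and on chromosome 8 from 3000001, which holds the insulin receptor gene Insr. Measured from the autosomal median, the tumours averaged -0.09 ± 0.06, -0.04 ± 0.06 and -0.06 ± 0.07 there (SD, n = 6), against -0.05, 0.00 and -0.02 in the non-tumour livers. In these bins 4, 2 and 3 of 6 tumours lay below both livers, and on chromosome 8 tumour 5 lay above both. The 0.00 on chromosome 5 averaged -0.07 for FEAT normal liver and 0.06 for wild-type liver. Relative to the chromosome means, the differences were -0.06, -0.05 and -0.05. None of these 6 bins passed the adjusted limma test.

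Focal changes were sought by dividing each chromosome into segments of at least 5 probes and calling those at or beyond 0.2, with segments under 3 Mb counted as focal. On the 4 chromosomes 0 focal segments were called in each of the 6 tumours, against 2 in the FEAT normal liver, both losses, and 2 in the wild-type liver, both gains. The other 15 autosomes held 8, 5, 3, 5, 7 and 3 focal segments in tumours 1 to 6, 5 for FEAT normal liver and 4 for wild-type liver. Per 1000 probes, the tumours averaged 0 focal segments on the 4 chromosomes and 0.03 on the other autosomes. This is given as a description, since the chromosomes were chosen for small means and the calls use a fixed distance from 0. For that reason the sign-flip test planned for this contrast is not read here. The tumours had 2 focal segments fewer than the non-tumour livers on the 4 chromosomes. An exact permutation test over 28 splits gave p = 0.0714, the smallest p they allow. It pooled 1 FEAT and 1 wild-type liver, on chromosomes chosen for small means, so that no conclusion is drawn from it. An absence of focal calls is not particular to these chromosomes, since 7 of the other 15 autosomes also had 0 in all tumours, and 10 of the 31 tumour calls lay on chromosome 14.

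The focal count of 0 in tumours changed under 2 of the settings run, the signal correction and a lower segmentation penalty. After the correction for reference signal, the 4 chromosomes held 0, 2, 0, 3, 0 and 2 focal segments in tumours 1 to 6, 7 in all. The single array of FEAT normal liver held 3 and that of wild-type liver 0. The other 15 autosomes then held 8, 10, 4, 14, 9 and 14 in tumours 1 to 6, against 14 for FEAT normal liver and 3 for wild-type liver. Of the 8 loci then called, 6 had no call without the correction, and both losses of the FEAT normal liver remained while both gains of the wild-type liver were no longer called. With the segmentation penalty cut from 2 to 1, there were 14, 10, 18, 8, 11 and 3 focal calls in tumours 1 to 6, against 16 for FEAT normal liver and 28 for wild-type liver. The other 15 autosomes held 57, 56, 45, 38, 55 and 25 in the tumours at that penalty, against 28 for FEAT normal liver and 87 for wild-type liver. The largest number at that setting was thus on the array of wild-type DNA set against DNA of the same strain. With the calling threshold lowered to 0.1, the focal counts of tumours stayed at 0, but segments of at least 3 Mb covered 1.91%, 12.8% and 1.21% of probes in tumours 1, 4 and 5. With the mode as 0 and the threshold at 0.2, tumour 4 had 3 called gains of at least 3 Mb. They covered 5.84% of probes on the 4 chromosomes. Probe noise sets what can be missed: inside a flat stretch, 10 probes had to be 0.49 off to be divided off in tumour 5, and 1.08 off in tumour 4. For 50 probes these levels were 0.22 and 0.48. Where 2 longer segments of unlike level meet, a smaller distance can be enough.

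On chromosome 2 the FEAT normal liver was called lost over 9.01 kb between 25292894 and 25301903, at -1.08. The 5 probes there are named Anapc2 (a subunit of the anaphase-promoting complex), AK019803, BC004853, AK142669 and Grin1 (a subunit of the NMDA glutamate receptor). Their median was -0.25, -0.09, 0.36, -0.26, 0.41 and -0.43 in tumours 1 to 6, against -1.58 for FEAT normal liver and 0.28 for wild-type liver. The FEAT normal liver stood apart from all other arrays, with tumour 6 the lowest of the tumours. The loss rested on the last 3 probes, at -1.74, -1.58 and -1.93 in the FEAT normal liver, of which the first and second share the 30 bases shown above. At the Anapc2 and AK019803 probes the same liver read -0.19 and 0.05. The Grin1 probe spread widely, at -0.27, -0.26, 0.21, 0.46, 0.74 and -1.10 in tumours 1 to 6, against -1.93 for FEAT normal liver and 0.68 for wild-type liver.

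On chromosome 11 the same liver was called lost over 29.1 kb between 97627549 and 97656675, at -1.31. All 5 probes carry the name P140, an older name of Srcin1, which codes for an adaptor protein that binds SRC kinase. The probe median was -0.27, -0.07, 0.03, -0.37, -0.31 and -1.01 in tumours 1 to 6, against -1.62 for FEAT normal liver and -0.04 for wild-type liver. Tumour 6 was again the tumour nearest to the FEAT normal liver. In that liver probes 1, 3, 4 and 5 read -2.06, -1.41, -1.62 and -2.07, while probe 2, between them, read 0.16. Tumour 6 read -1.01, -1.12 and -1.46 at probes 3, 4 and 5, and -0.33 and 0.43 at probes 1 and 2. After the signal correction the median was -1.56 in the FEAT normal liver and -0.85 in tumour 6, where no segment was called. Both arrays are single samples, so that these values have no replicate check.

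A further stretch with the same pair of arrays appeared after the signal correction, on chromosome 2 between 165233261 and 165259584, where tumour 6 was called lost. Its 7 probes include 4 named Slc2a10, a glucose transporter gene of the GLUT family. The corrected median was -0.14, -0.09, -0.07, -0.21, -0.19 and -0.65 in tumours 1 to 6, against -0.51 for FEAT normal liver and -0.15 for wild-type liver. The uncorrected medians were -0.58 in tumour 6 and -0.51 in the FEAT normal liver, below the -0.30 to 0.10 of the other arrays. At these 3 loci the FEAT normal liver and tumour 6 were the 2 lowest of 8 arrays, but the loci were picked by calls in those arrays, so that this is a description.

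**Figure D4:**
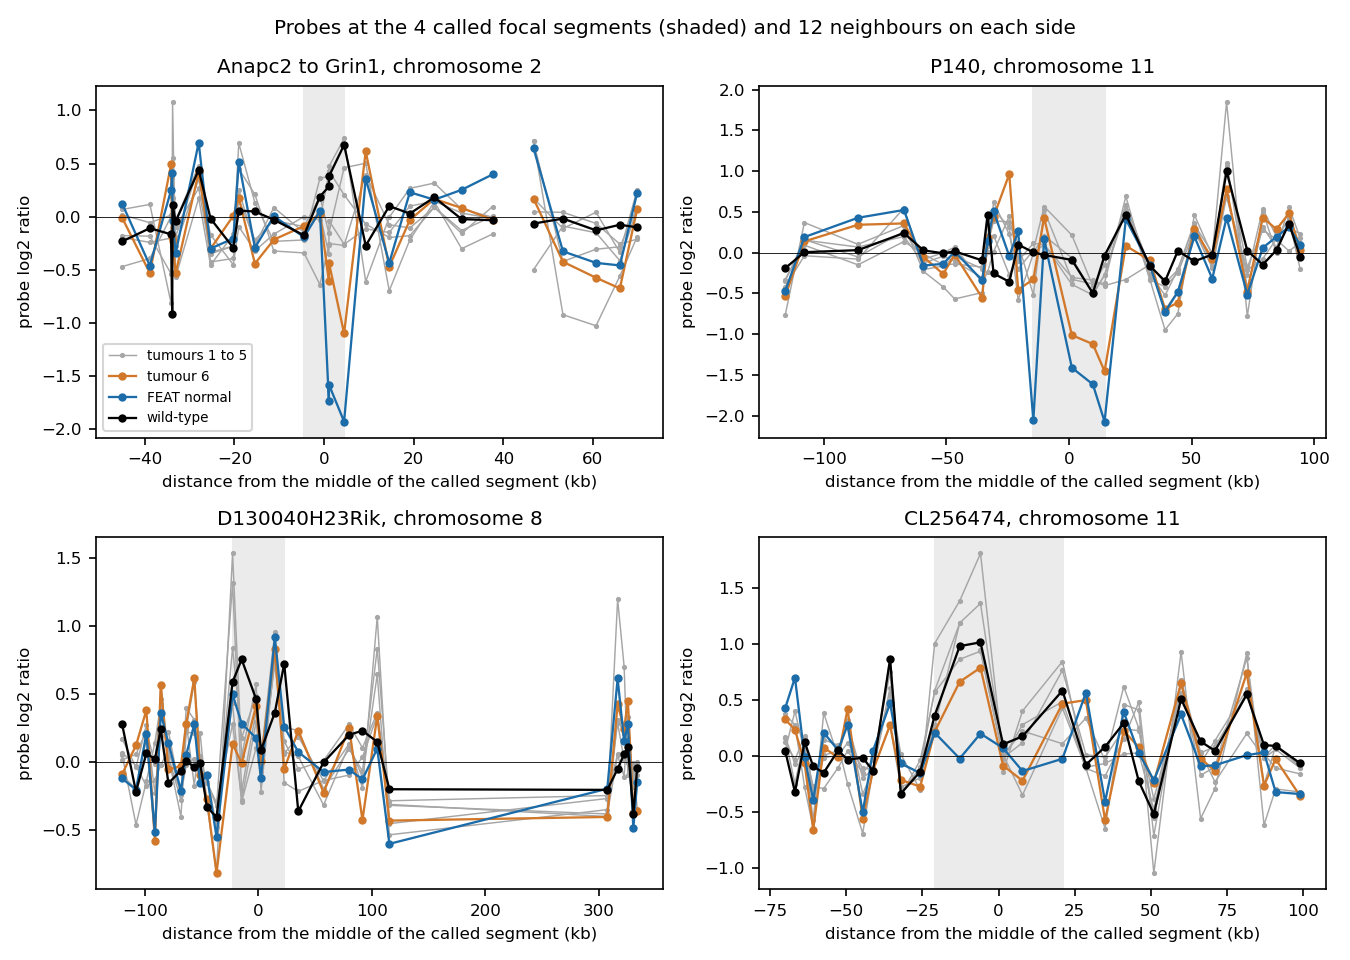
Probe log2 ratios against distance in kb from the middle of the 4 called focal segments (shaded), with 12 neighbouring probes on each side. Losses of the FEAT normal liver are in the upper row and gains of the wild-type liver in the lower row; a gap in a line is a probe with no value. In the upper row the FEAT normal liver falls below -1.4 at single probes, with tumour 6 next, while the lines of the other arrays stay higher.

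The gains of the wild-type liver were smaller and rested on dim probes. On chromosome 8 it was called gained over 45.6 kb between 67720843 and 67766399, at 0.49, where 4 of 6 probes carry the name D130040H23Rik. The probe median was 0.31, 0.07, 0.33, 0.32, 0.21 and 0.07 in the tumours, against 0.27 for FEAT normal liver and 0.52 for wild-type liver. On chromosome 11 it was called gained over 42.0 kb between 96193528 and 96235542, at 0.54, where the 6 probes carry the cDNA name CL256474. The probe median was 0.39, 0.58, 0.74, 0.35, 0.28 and 0.34 in the tumours, against 0.02 for FEAT normal liver and 0.47 for wild-type liver. Tumours 2 and 3 were thus higher there than the array that was called. The median red signal of the probes was 361 at the chromosome 8 segment and 173 at the chromosome 11 segment, against 900 over all probes. CL256474 probes 2 and 3 read 0.98 and 1.01 in the wild-type liver with red signals of 110 and 108, in the lowest 1.26% of probes. Neither gain was called after the GC correction or after the signal correction. The signal correction ranks probes by the denominator of this array's own ratio, so that it is no independent check of these 2 calls. The part of signal in these calls was not tested further.

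Other stretches called after the signal correction were seen in 1 or more tumours. On chromosome 11 between 3078911 and 3146185, tumour 4, tumour 6 and the FEAT normal liver were called gained. The corrected medians were 0.75, 0.67 and 0.43 over 11 probes, of which 10 had a value in the FEAT normal liver. Those medians were 0.04, 0.06 and -0.09 without the correction, and the probes there had a median red signal of 19994, far above the 900 of all probes. At signals this bright the correction is constant, so that on a given array it raised all these probes by the same amount. The part of that constant in these calls was not tested. In the FEAT normal liver 1 probe went the other way, at -0.65 corrected and -1.17 uncorrected. In tumour 4 a stretch of chromosome 5 between 144501057 and 144725150, which holds Cyp3a41 and Cyp3a44 (drug-metabolising cytochrome P450 genes), was called gained at a corrected median of 0.30, against 0.01 uncorrected. The corrected median there was also 0.24 in tumour 6 and 0.26 in the FEAT normal liver, where no segment was called, and -0.03 in the wild-type liver. Tumour 4 was also called gained on chromosome 5 between 10902988 and 11379996, at 0.50 corrected and 0.09 uncorrected. Tumour 2 was called lost on chromosome 11 between 97125857 and 97147855, over probes named Sp6, Scrn2 and Lrrc46, at -0.43 corrected and -0.37 uncorrected, against -0.09 (FEAT normal) and -0.10 (wild-type) uncorrected. It was called lost as well between 52206776 and 52243676 of the same chromosome, where 3 of 5 probes are named Tcf7, a transcription factor of the Wnt pathway, at -0.50 corrected and -0.30 uncorrected. Corrected medians there were -0.06, -0.26, -0.07, -0.24 and -0.37 in tumours 1, 3, 4, 5 and 6. The FEAT normal liver read 0.01 and the wild-type liver -0.08, and the median red signal of these probes was 319.

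Shorter stretches, of at least 3 neighbouring probes all beyond 0.5 in 1 direction, were counted without segmentation. The 4 chromosomes held 19, 7, 57, 477, 2 and 73 of them in tumours 1 to 6, against 46 for FEAT normal liver and 2 for wild-type liver. Tumour 4 had the most, and tumours 2 and 5 were close to the wild-type liver. Per 1000 probes, the 4 chromosomes and the other 15 autosomes had 0.35 and 1.22 in tumour 1 and 0.037 and 1.71 in tumour 5. In tumour 4 these densities were 8.78 and 9.28, and in tumour 6 they were 1.34 and 1.33. The stretches were counted at a fixed distance from 0 and the chromosomes were chosen for small means, so these densities are a description. After the signal correction the numbers were 1, 2, 6, 16, 1 and 6 in the tumours, against 6 for FEAT normal liver and 1 for wild-type liver. Without the correction, 13 of 589 places were shared by 3 or more arrays. Tumour 4 alone held 477 of the 683 stretches of all arrays. The 5 high ones had median red signals of 219 to 482, and the 8 low ones had 2987 to 6151. Among the high ones were probes of Hoxd13 and Hoxd11, homeobox genes of limb patterning, on chromosome 2 between 74509874 and 74529424, at 0.07, 0.27, 0.66, 0.60, 0.12 and 0.59 in the tumours, against 0.61 for FEAT normal liver and 0.33 for wild-type liver. Among the low ones were probes of Rxra, a nuclear receptor gene active in hepatocytes, on chromosome 2 between 27694084 and 27707794, at -0.57, -0.42, -0.50, -0.97, -0.35 and -0.84 in the tumours, against -0.70 for FEAT normal liver and -0.18 for wild-type liver. In both examples tumours and non-tumour livers overlapped. These genes were chosen after their values were seen.

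Genes known from human HCC were followed on the 4 chromosomes through 9 lists, chosen with earlier results of these data known. Of 116 list genes 110 were found on the array, and 0 of the 110 lay in a called segment of any tumour or non-tumour liver. Over all autosomes, 13.5% of named genes lay in a called gained segment of at least 1 tumour (3319 of 24670) and 24.8% in a called lost one (6111 of 24670). On the 4 chromosomes it was 0 of 6789 in each direction. These chromosomes were chosen for small means, so the contrast is read no further. The median difference between tumours and non-tumour livers was 0.01 over the 110 genes, taken over probes within 0.5 Mb of each gene, against 0.02 for all genes on the 4 chromosomes and 0.01 for all autosomal genes.

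By list, the medians of that difference were 0.02 for 4q, 17q and chromosome 7 orthologues and for 13q, 0.01 for 16q, 17p, 20q and hepatocyte genes, and 0.00 for 8p. Among 4q genes the highest tumour mean was that of Hpgd, which codes for a prostaglandin-degrading enzyme, at 0.15, 0.10, 0.10, 0.20, 0.13 and 0.04 in tumours 1 to 6, against 0.05 for FEAT normal liver and 0.01 for wild-type liver. Tumour 6 was below the FEAT normal liver. The lowest was Kdr, the VEGF receptor gene of endothelium, at -0.04 ± 0.06 (SD, n = 6), against -0.05 in the non-tumour livers. Alb, the albumin gene, averaged 0.06 ± 0.04 in tumours (SD, n = 6) and 0.06 in the non-tumour livers, and Afp, the fetal liver gene raised in many HCCs, averaged 0.07 ± 0.03 and 0.06.

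On chromosome 8, the highest 16q gene was Cdh11 (a cadherin), at a tumour mean of 0.06, and the lowest was Cyld, a deubiquitinase and tumour suppressor. Cyld read -0.04, -0.03, -0.05, -0.11, -0.07 and -0.09 in tumours 1 to 6, against -0.07 for FEAT normal liver and -0.03 for wild-type liver, so that the groups overlapped. In the 8p list the range ran between Csmd1, at 0.00, and Wrn, a DNA helicase gene, at 0.06, and in the 13q list between Ing1, at -0.01, and Lig4, a DNA ligase gene, at 0.03.

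On chromosome 11, Trp53, the p53 gene, read -0.01, -0.03, 0.06, -0.01, 0.04 and -0.02 in tumours 1 to 6, against -0.05 for FEAT normal liver and -0.02 for wild-type liver. The 17p list ran between Asgr2, a subunit of the hepatocyte asialoglycoprotein receptor, at a tumour mean of -0.03, and Flcn, at 0.03. The 17q list ran between Erbb2, a growth factor receptor, at -0.03, and Rps6kb1, the S6 kinase gene, at 0.06. On chromosome 2, the 20q list ran between Mybl2, a cell cycle transcription factor, at -0.04, and Top1, the gene of topoisomerase I, at 0.05. Among the chromosome 7 orthologues the highest was Hgf, the ligand of the MET receptor, on chromosome 5, at 0.13, 0.09, 0.05, 0.16, 0.10 and 0.08 in tumours 1 to 6, against 0.07 for FEAT normal liver and 0.05 for wild-type liver. The lowest was Rac1, a small GTPase gene, at a tumour mean of -0.03. The hepatocyte list ran between Asgr2 and Igfbp1, at 0.08. Over all list genes and arrays, the value beyond 0.2 was that of Vegfc, a lymphatic growth factor gene of the 4q list, at 0.21 in tumour 4, against 0.09 for FEAT normal liver and 0.06 for wild-type liver.

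**Figure D5:**
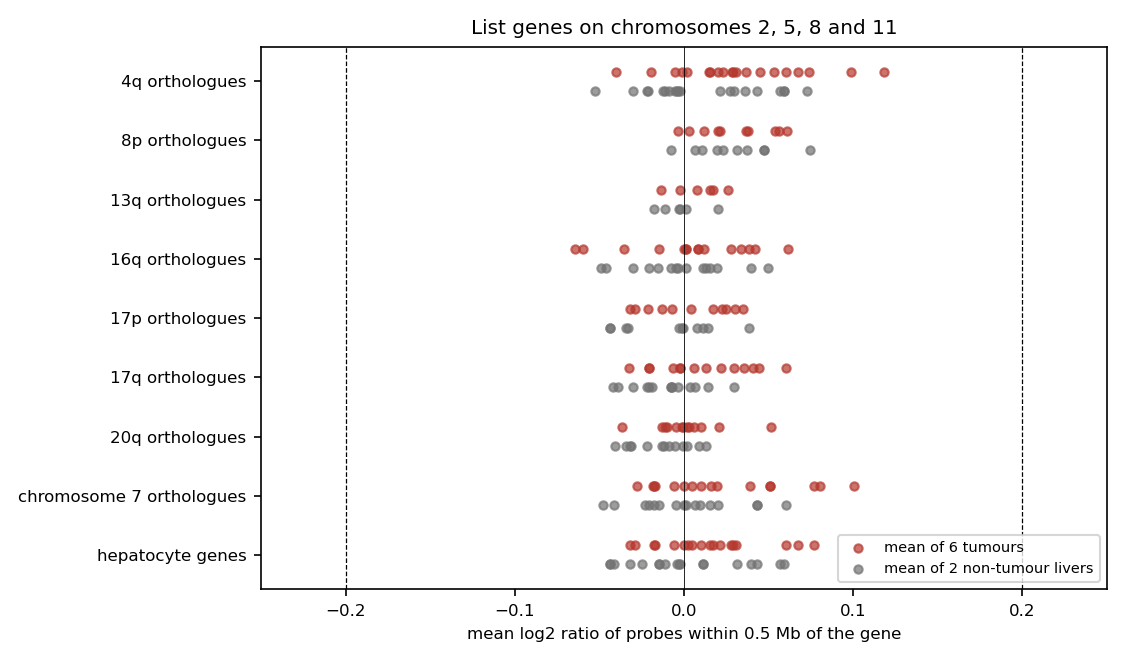
Mean log2 ratio of probes within 0.5 Mb of each list gene on chromosomes 2, 5, 8 and 11, as the mean of 6 tumours (red, upper row of each list) and of 2 non-tumour livers (grey, lower row). Dashed lines mark the calling threshold of -0.2 and 0.2; the points of both colours overlap in each list and lie between -0.07 and 0.12.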

How the data were processed

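Each of 8 liver samples was labelled with Cy3 and the reference liver DNA with Cy5 on 2-colour Agilent 244A arrays, per the labels. The authors deposited log2 ratios for each array. On the wild-type array they equalled the deposited log10 ratio of the scanner file, red over green per the file headers, rewritten in base 2 and with opposite sign, apart from a constant of 0.0014 (r = -1); for the other 7 arrays the direction is taken from the labelled dyes. Only the wild-type array's scanner output was used here. Per the file headers it was made with Feature Extraction 9.1.3.1 and protocol CGH-v4_91, with spatial detrending and linear dye normalisation, and the deposited intensity values are processed signals. Its flags for dim spots, per the file headers, were also used. CGH analytics 3.4 is named in the series text. No source used here names the genome build.

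Spots of 1 probe were averaged, and 55029 of 235406 spots lay on the 4 chromosomes. The autosomal median of every array was set to 0, with neither loess nor quantile steps. Neighbouring probes gave the noise through their differences, and outlying values were drawn in to 3 noise SDs around the running median of 5 probes. Segments came from least squares with a cost per break of 2 noise variances times the log of the probe number, with at least 5 probes each, and were called at or beyond 0.2. The segmentation was tested on simulated data. Bins of 1 Mb were tested with limma 3.58.1 (R 4.3.3), and p-values were adjusted by Benjamini and Hochberg, with a threshold of 0.05. The 6 tumours differ in age by their labels, and p-values measure the spread between these samples, and the number of arrays limits the precision. In limma the non-tumour group pooled 1 FEAT and 1 wild-type liver.

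The members and gene lists were chosen with earlier results of these data known. Named were, by rule, each called focal segment with its genes, the 3 highest and 3 lowest segments of at least 100 probes, the 3 highest and 3 lowest bins by difference, and the highest and lowest gene of each list. Other genes were chosen after their values were seen. List genes were matched to array names through RefSeq names of GRCm38.p6. Alternatives covered the threshold, penalty, probe minimum, zero line, GC in 20 classes, dim probes, the bin size, which liver was the control, and leaving out each tumour; a correction by 20 classes of red signal, and leaving out chromosome 14 or loci shared with a non-tumour liver, were added after seeing the data. Python 3.11.15, numpy 2.4.6, pandas 2.3.3, numba 0.67.0 and matplotlib 3.10.9 were used. Values of some list genes are not reported here.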

Additional observations from a re-analysis of the deposited data

Results flagged for a closer look

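In 2 bins of chromosome 2, tumour 4 stood apart from the other tumours by Dixon's criterion for 6 samples. In the bin from 8000001 it read 0.34, with a median of 0.15 over the 6 tumours. In the bin from 82000001 it read 0.31, with a median of 0.13. The criterion was applied to 31 sets of tumour values. Chance alone would give about 1.55 if the sets were picked without regard to their values. Both bins were picked for a large difference between tumours and non-tumour livers, so that this number does not hold for them. Tumour 4 was also the array with the highest probe noise and the steepest trend with signal; the part of these in the 2 values was not tested.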

How the results depend on the processing

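No paired analysis was possible because the replicate numbers were given in accession order and each non-tumour group has 1 sample. The count of focal segments on the 4 chromosomes, 4 over 8 arrays, depended on the settings: 108 with penalty factor 1 (80 gains and 28 losses), 0 with penalty factor 4, 1 with at least 10 probes per segment, 2 after GC correction and 10 after the signal correction added later. With penalty factor 1, 3 list genes lay in called segments instead of 0, among them Wwox and Igfbp1 in tumour 3. The largest chromosome mean, 0.0716, became 0.0531 as a median, 0.147 on the mode and 0.170 as deposited. Leaving out each tumour in turn kept it between 0.0630 and 0.0716. The difference in focal segments per 1000 probes between the 4 and the other autosomes was -0.0312, which is a description. With each tumour left out it ranged from -0.0338 to -0.0278. The tumour minus non-tumour difference then stayed at -2, with exact p = 0.0952 by permutation, and all remaining 28 pairs were within 0.1. That density difference was -0.0812 with penalty factor 1, -0.0379 after the signal correction and -0.0225 without chromosome 14. After the signal correction the tumour minus non-tumour difference was -0.333, with adjusted exact p = 1.0. No bin on the 4 chromosomes was called by limma under any alternative, with unadjusted p under 0.05 in 0 to 16 bins; with the wild-type liver alone as control, 1 bin of another chromosome was called (adjusted p = 0.0336). Of values near 0, the tumour mean at the chromosome 2 loss was -0.05 and became 0.00 (0.00168) after GC correction, and the median difference of the 8p list was 0.000331 and became -0.000518 without dim probes. The cause of these changes was not tested. Probe noise limits what can be seen of changes over 10 or fewer probes, most of all in tumour 4.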
